A study of Mus musculus with 18 samples.

Results

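The DNA replication machinery was followed through 44 genes whose symbols were looked up in the count tables, out of 21959 genes listed for mouse embryonic fibroblasts (MEFs) and 51826 listed for liver. They comprised the 6 subunits of the MCM2-7 helicase, 9 genes of origin recognition and licensing, 6 genes of CMG assembly, 8 genes of polymerases and primase, 6 of the clamp and clamp loader, 3 of replication protein A (RPA), 2 of Okazaki fragment maturation and 4 of nucleotide supply. All 44 were listed in both tables, and 0 of them lie on the X chromosome. The study compared mice lacking repeat B of the long non-coding RNA Xist (RepB-/-) with wild-type (WT) mice by RNA sequencing. Each tissue was represented by 3 RepB-/- and 3 WT libraries, with the letter B in a library name read as RepB-/- and W as WT.

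RepB-/- is the study's name for a homozygous deletion made by CRISPR/Cas9 with a pair of guide RNAs flanking repeat B, and the WT mice carried no deletion. Repeat B is the stretch of Xist that brings Polycomb complexes to the inactive X chromosome, so the deleted sequence is not part of any of the 44 genes. The fibroblast libraries were labelled as a primary MEF line with the tissue given as tail, and the liver libraries as liver. The labels give neither age nor sex, and the study writes RepB-/- for females and RepB-/Y for males. Nor do the labels say whether the 3 libraries of a group came from separate animals or cultures, so p-values measure the spread between these libraries, which may be technical. The brain libraries were not analysed here.

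Before a cell can copy its genome, the origin recognition complex, Cdc6 and Cdt1 load the ring-shaped MCM2-7 helicase onto DNA in G1 phase. In S phase Cdc45 and the GINS complex join MCM2-7 to form the active CMG helicase, primase and polymerase alpha start each strand, polymerases epsilon and delta extend the leading and lagging strands on the PCNA clamp, and RPA covers single-stranded DNA. Transcription of many of these genes is driven by E2F factors as cells enter the cycle, so the group is abundant in dividing cells and low in quiescent tissue such as adult liver.

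Library totals ran from 11540344 to 20587556 counts in MEFs and from 37682201 to 51542709 in liver. The MEF table listed no Xist, so the deletion could not be checked there. In liver Xist had 4 counts in the library read as RepB-/- replicate 2, which also held 1527 counts of Y-linked Ddx3y. The other 5 libraries had 14494 to 26345 Xist counts. The other Y-linked genes read, Eif2s3y, Kdm5d and Uty, had 438 to 1669 counts in it and at most 1 in the others. These values go against reading its letter B as RepB-/-, which the study writes for females, since the library held Y-linked RNA. Some liver results are therefore also given without the library read as RepB-/- replicate 2, and the others include it. Fibroblast markers summed to between 13294 and 21726 CPM (counts scaled to library size) in the MEF libraries, where the 9 hepatocyte markers reached at most 2.81 CPM. Hepatocyte markers summed to between 113073 and 198608 CPM in liver. The 2 liver libraries numbered replicate 1, RepB-/- and WT, stood apart from the other 4: fetal liver markers (Afp, H19, Dlk1, Gpc3 and Igf2bp3) summed to 4514 and 4013 CPM in them and to between 4.82 and 25.6 CPM elsewhere.

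In MEFs the replication genes were higher in RepB-/- cells than in WT cells. Of the 43 genes with enough reads to be tested, 25 rose and 1 fell at an adjusted p under 0.05, and 17 did not pass, beside 19.4% of all 13306 tested genes that rose and 19.7% that fell. The median log2 fold change of the 43 was 0.35, beside 0.00 for all tested genes, and 42 of the 43 values were above 0, beside 50% of all genes. Added together, the 44 genes took 1769.85, 1748, and 1830.1 CPM in the RepB-/- libraries and 1307, 1347, and 1389 CPM in the WT libraries, a ratio of the means of 1.32. A rise of at least 1.5-fold was called for 15 of the 43, beside 6.36% of all genes. All 3 RepB-/- libraries lay above all 3 WT libraries for 26 of the 44, and below them for 1, beside 26.4% and 25.8% of all tested genes. In these bulk libraries more cells in cycle and more RNA in each cell cannot be told apart. The paper reports slower proliferation of RepB-/- MEFs in a CCK-8 assay and a larger G2/M share by flow cytometry. It also reports raised expression of cell cycle genes in RepB-/- MEFs. Whether those cultures are the ones sequenced is not given, and how these findings relate to the RNA values was not tested.

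**Figure D1:**
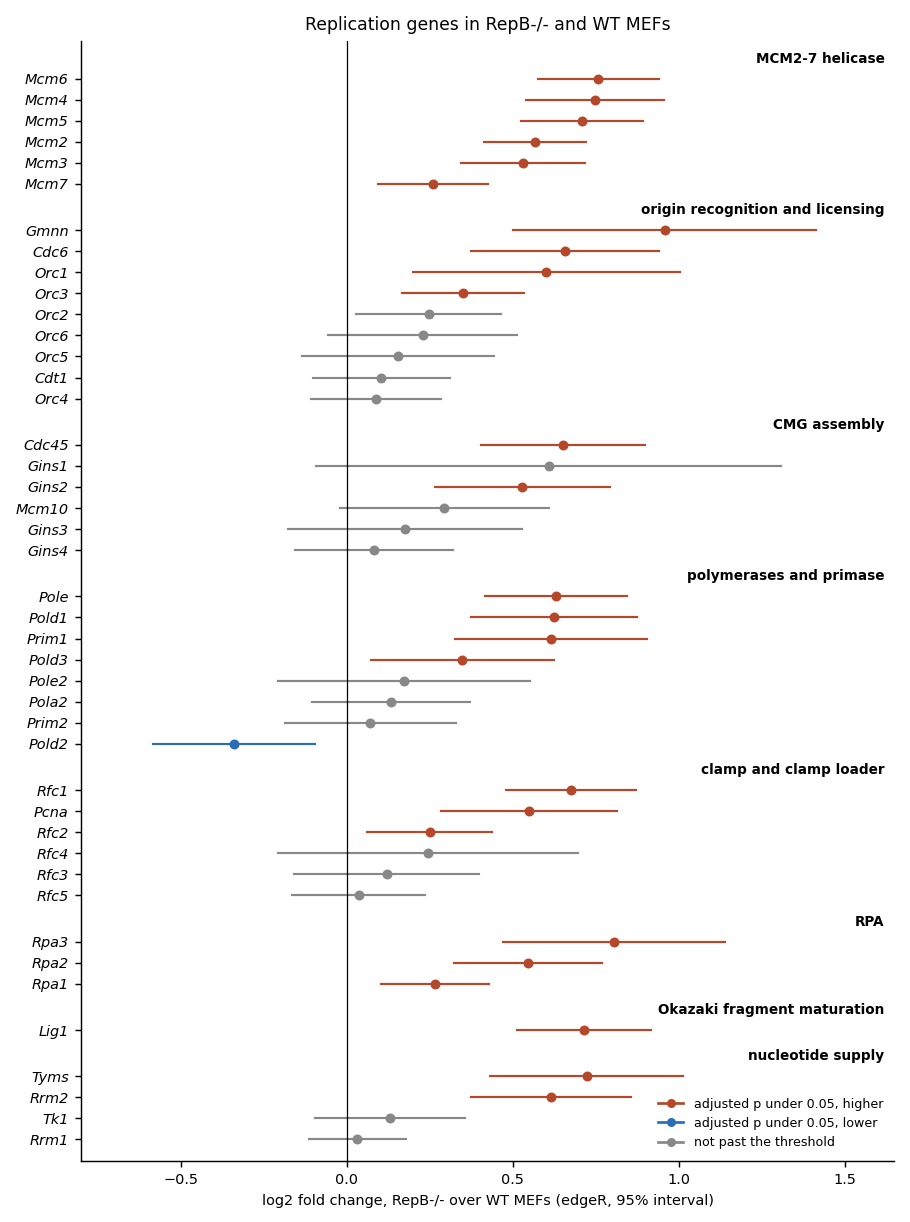
Log2 fold change of RepB-/- over WT MEFs for the 43 tested replication genes, grouped by complex, with points for the edgeR estimate and lines for its 95% interval. All 6 MCM2-7 genes lie above 0 with intervals that exclude it. The licensing, CMG, polymerase, clamp loader and nucleotide supply groups each hold genes whose interval spans 0, and Pold2 alone lies below 0.

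All 6 subunits of the MCM2-7 helicase rose, beside 19.4% of all tested genes, with a median log2 fold change of 0.64. Mcm6 (chr1:128259327-128287401, GRCm39) stood at 54.3, 48.5 and 47.7 CPM in the RepB-/- libraries and at 29.6, 29.2 and 30.2 CPM in the WT libraries. The groups were far apart, with a log2 fold change of 0.76 ± 0.08 (SE, n = 3 and 3) and an adjusted p of 2.35e-05. Mcm4 (chr16:15441761-15455264) measured 64.7, 71.4 and 64.5 CPM against 35.1, 38.3 and 45.7 CPM, again without overlap, for a log2 fold change of 0.75 ± 0.10. Mcm5, Mcm2 and Mcm3 rose by 0.71, 0.57 and 0.53 on the log2 scale. The smallest change was that of Mcm7 (chr5:138162845-138170684), at 68.4, 62.1 and 61.7 CPM against 55.3, 51.2 and 54.1 CPM. Its log2 fold change of 0.26 ± 0.08 had an adjusted p of 0.017, which became 0.080 without RepB-/- replicate 1 and 0.055 without WT replicate 2. As the 6 proteins act in a ring with 1 copy of each, the ratio of Mcm7 to Mcm6 was also read within each library, per length. The pair joins the smallest and the largest change of the 6 and was picked after the values were seen. A shift of its ratio therefore follows largely from that choice. The ratio was 1.33, 1.35 and 1.36 in RepB-/- cells and 1.97, 1.85 and 1.89 in WT cells, and it does not depend on how libraries are scaled.

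Mcm6 and Mcm7 also illustrate the promoter sequences of the group. RefSeq promoter windows (GRCm38.p6, 250 bases before to 50 after a start) were matched to 36 of the 44 genes, and 14 of these 36 held an E2F-like match, spelled TTT, then C or G at 2 positions, then CGC, on either strand. That was 38.9% of the matched genes, beside 2.6% of all genes in the table, and 2.26% of all 32817 windows. Of 38 other replication genes outside the 44, 10 (26.3%) also held the match. Among the 36 matched genes, it was present in 10 of the 20 that rose in MEFs and in 4 of the 14 that did not pass. The CCAAT box was found in 22 of the 36, beside 41% of all genes, and the TTTGAA element in 5 of the 36, beside 20.2% of all genes. Mcm3, Mcm5, Mcm7 and Rfc3 held 2 matches each and Mcm6 held 3. Below are the 250 bases before the start of 3 of the genes given in full that held a match there, to show what such a match looks like, with E2F-like matches in capitals. The Mcm6 window held 3 matches, which begin at positions -110, -106 and -47 counted from the start, and the first pair overlap. Mcm7 held 1 before the start, at -165, and 1 after it, and Cdc6, the loader of MCM2-7, held 1 at -138. These matches are letters in a window and were not tested for binding. For Mcm7 and Cdc6 the printed bases lie inside the gene as listed for liver (chr5:138164583-138172422 and chr11:98907801-98923940, GRCm38). Their RefSeq start is therefore not the outer end of the listed gene. Mcm7 had 2 windows, and 1 of them is printed.
Mcm6 (chr1:128359706-128359955, minus strand): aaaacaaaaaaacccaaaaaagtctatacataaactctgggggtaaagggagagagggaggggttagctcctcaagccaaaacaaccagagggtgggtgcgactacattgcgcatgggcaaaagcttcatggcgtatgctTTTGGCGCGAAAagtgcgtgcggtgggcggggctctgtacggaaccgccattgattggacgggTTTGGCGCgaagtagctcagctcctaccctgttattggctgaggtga
Mcm7 (chr5:138171884-138172133, minus strand): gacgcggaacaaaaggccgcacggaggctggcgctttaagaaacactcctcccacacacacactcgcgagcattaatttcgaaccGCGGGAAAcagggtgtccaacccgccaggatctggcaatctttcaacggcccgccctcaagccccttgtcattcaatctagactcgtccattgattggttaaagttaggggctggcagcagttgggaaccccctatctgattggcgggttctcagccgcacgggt
Cdc6 (chr11:98907901-98908150, plus strand): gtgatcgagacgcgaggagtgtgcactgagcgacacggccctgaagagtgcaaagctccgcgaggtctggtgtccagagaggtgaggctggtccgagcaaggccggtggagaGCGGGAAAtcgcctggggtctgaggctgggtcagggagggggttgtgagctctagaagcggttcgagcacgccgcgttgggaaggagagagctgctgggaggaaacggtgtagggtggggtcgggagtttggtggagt
Lig1 and Pold1 held 1 match each, between 27 and 34 bases and between 40 and 47 bases after the start.

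Origin recognition and licensing was split. Of its 9 genes, 4 rose, beside 19.4% of all tested genes, and 5 did not pass. The median log2 fold change was 0.25. Gmnn (chr13:24935828-24945906), encoding geminin, which holds Cdt1 inactive after S phase has begun, showed the largest change of the 43 tested genes. It measured 6.07, 6.20 and 5.63 CPM in RepB-/- cells and 2.33, 3.09 and 3.68 CPM in WT cells. The libraries did not overlap, and the fold was 1.94 (95% interval 1.41 to 2.67, adjusted p = 0.0031). Its partner Cdt1 was at 28.4 ± 0.77 CPM against 26.4 ± 2.61 CPM (SD, n = 3 each) and did not pass (log2 fold change 0.10, adjusted p = 0.42). The Gmnn to Cdt1 ratio, per length, was 0.45, 0.48 and 0.42 in the RepB-/- libraries and 0.17, 0.27 and 0.30 in the WT libraries. Cdc6 (chr11:98798627-98814766) stood at 21.5, 20.7 and 20.5 CPM against 16.0, 10.8 and 13.2 CPM, with a log2 fold change of 0.66 ± 0.13 and an adjusted p of 0.0016.

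Within the origin recognition complex itself, 2 of 6 subunits rose, beside 19.4% of all tested genes. Orc1, the subunit known to come and go with the cell cycle, rose by 0.60 on the log2 scale (adjusted p = 0.021), although the call was lost without RepB-/- replicate 1 (adjusted p = 0.070) or WT replicate 2 (0.076). Orc3 rose by 0.35 (adjusted p = 0.0056). Orc2 had a log2 fold change of 0.25 with every RepB-/- library above every WT library, but an adjusted p of 0.070. Orc6 and Orc5 had values of 0.23 and 0.15. Orc4 (chr2:48792836-48840289) changed least, at 30.0, 32.3 and 35.6 CPM against 30.2, 30.7 and 31.2 CPM, ranges that overlapped, with a log2 fold change of 0.09 (95% interval -0.11 to 0.28).

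For CMG assembly, 2 of 6 genes rose, beside 19.4% of all tested genes. Cdc45 (chr16:18599197-18630737), the protein that joins MCM2-7 at each firing origin, measured 22.8, 18.7 and 20.6 CPM against 13.9, 13.5 and 12.2 CPM, a log2 fold change of 0.65 ± 0.12 (adjusted p = 0.00069). Gins2 rose by 0.53 (adjusted p = 0.0040). The other GINS subunits did not pass. Gins1 (chr2:150747320-150773200) was among the scarcest genes, with 2.14, 2.94 and 2.28 CPM against 2.25, 1.05 and 1.60 CPM, so the log2 fold change of 0.61 had a 95% interval from -0.09 to 1.31. Gins4 (chr8:23716632-23727675) was at 27.8, 23.8 and 23.8 CPM against 27.1, 21.8 and 22.6 CPM, ranges that overlapped. Gins3 had a log2 fold change of 0.18 and Mcm10, a scaffold at the activated helicase, of 0.29. Mcm10 passed when WT replicate 1 was left out (0.48, adjusted p = 0.0042) and when low counts were kept (adjusted p = 0.033).

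Among polymerases and primase, 4 of 8 genes rose, 1 fell and 3 did not pass, beside 19.4% of all tested genes that rose and 19.7% that fell. Differences between subunits of an enzyme were not tested. Pole (chr5:110434172-110485340), the catalytic subunit of polymerase epsilon, was at 23.1, 22.7 and 22.1 CPM in RepB-/- cells and 13.95, 14.8 and 15.03 CPM in WT cells, for a log2 fold change of 0.63 ± 0.10. The second subunit Pole2 had 0.17 (95% interval -0.21 to 0.55). Pold1 (chr7:44182170-44198273), the catalytic subunit of polymerase delta, was at 27.3, 27.7 and 27.2 CPM against 14.4, 19.8 and 18.9 CPM, for a log2 fold change of 0.62 ± 0.12. Pold3 had 0.35 with an adjusted p of 0.044, a call that was lost in 7 of 12 alternatives, among them DESeq2 (adjusted p = 0.089) and leaving out any library other than WT replicate 3 (0.052 to 0.17). Prim1, the catalytic subunit of primase, rose by 0.62, while the large subunit Prim2 (chr1:33492891-33708876) overlapped between genotypes, at 21.5, 23.2 and 23.2 CPM against 17.2, 23.6 and 23.4 CPM. Pola2, the regulatory subunit of polymerase alpha, had a log2 fold change of 0.13.

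The only gene of the 43 tested with a negative estimate was Pold2 (chr11:5822180-5828292), the regulatory subunit that joins Pold1 to the rest of polymerase delta. It measured 20.6, 18.3 and 16.9 CPM in RepB-/- cells and 24.9, 25.2 and 20.7 CPM in WT cells. The groups did not overlap, but RepB-/- replicate 1 and WT replicate 3 were close, and the log2 fold change was -0.34 ± 0.11 with an adjusted p of 0.029. That call was lost with DESeq2 (adjusted p = 0.058) and without RepB-/- replicate 2, RepB-/- replicate 3 or WT replicate 2 (0.093, 0.12 and 0.093). Set against Pold1 within a library and per length, Pold2 gave a ratio of 1.93, 1.69 and 1.60 in RepB-/- cells and of 4.45, 3.26 and 2.81 in WT cells.

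Of the 6 genes of the clamp and its loader, 3 rose, beside 19.4% of all tested genes, and 3 did not pass. Pcna (chr2:132091082-132095234), the sliding clamp, measured 23.5, 21.1 and 25.6 CPM against 13.6, 15.9 and 18.3 CPM, a log2 fold change of 0.55 ± 0.12 (adjusted p = 0.0033). Rfc1 (chr5:65419193-65493013), the large subunit of the loader, was at 52.2, 55.5 and 57.1 CPM against 33.8, 31.1 and 38.3 CPM, for a log2 fold change of 0.68 ± 0.09 (adjusted p = 9.46e-05). Of the 4 small subunits, Rfc2 rose by 0.25 (adjusted p = 0.036), a call lost in 7 of 12 alternatives, among them DESeq2 (0.062) and leaving out RepB-/- replicate 1 (0.15), RepB-/- replicate 2 (0.067), WT replicate 1 (0.054) or WT replicate 3 (0.086). Rfc4 and Rfc3 had log2 fold changes of 0.24 and 0.12. Rfc5 (chr5:117516168-117527112) was at 26.9, 24.0 and 24.4 CPM against 24.9, 24.2 and 24.3 CPM, nearly the same in every library, with a 95% interval of the log2 fold change from -0.16 to 0.24.

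All 3 RPA subunits rose, beside 19.4% of all tested genes. Rpa3 (chr6:8255936-8259173) was at 11.5, 11.5 and 9.68 CPM against 7.22, 5.63 and 5.94 CPM, for a log2 fold change of 0.81 ± 0.16 (adjusted p = 0.0012). Rpa2 (chr4:132495643-132506063) was at 37.2, 31.8 and 30.2 CPM against 23.7, 20.8 and 23.5 CPM, for 0.55 ± 0.10. Rpa1 (chr11:75188992-75239150), the largest DNA-binding subunit, was at 96.8, 101 and 111 CPM against 82.9, 84.2 and 89.5 CPM, for 0.27 ± 0.08, a call that was lost without RepB-/- replicate 3 (adjusted p = 0.063). Okazaki fragments are trimmed by Fen1 and sealed by Lig1. Lig1 (chr7:13011239-13045350) rose from 18.04, 20.4 and 18.3 CPM to 30.9, 31.8 and 30.7 CPM, for a log2 fold change of 0.72 ± 0.09. Fen1 held 2, 8 and 4 counts in the RepB-/- libraries and 11, 9 and 3 in the WT libraries and was not tested. In the liver table it had 3.79 to 20.9 CPM, and a stretch of 156 bases of it in either annotation overlaps Tmem258 on the opposite strand.

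Nucleotide supply contained the most abundant of the 44 genes per length and the least changed of the 43 tested. Rrm2 (chr12:24758240-24764145), the small subunit of ribonucleotide reductase, whose level is known to follow S phase, was at 329, 346 and 410 CPM in RepB-/- cells and 194, 271 and 243 CPM in WT cells. The ranges did not overlap, and the log2 fold change was 0.62 ± 0.11 (adjusted p = 0.00084). The large subunit Rrm1 (chr7:102090902-102118978), a stable protein, was at 185, 181 and 189 CPM against 171, 182 and 190 CPM, with a log2 fold change of 0.03 (95% interval -0.12 to 0.18). Tyms (chr5:30263200-30278615), which makes thymidylate, was at 25.1, 27.4 and 27.7 CPM against 12.7, 15.5 and 20.0 CPM, for 0.72 ± 0.14. Tk1, the thymidine salvage enzyme, had 0.13 (adjusted p = 0.35).

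**Figure D2:**
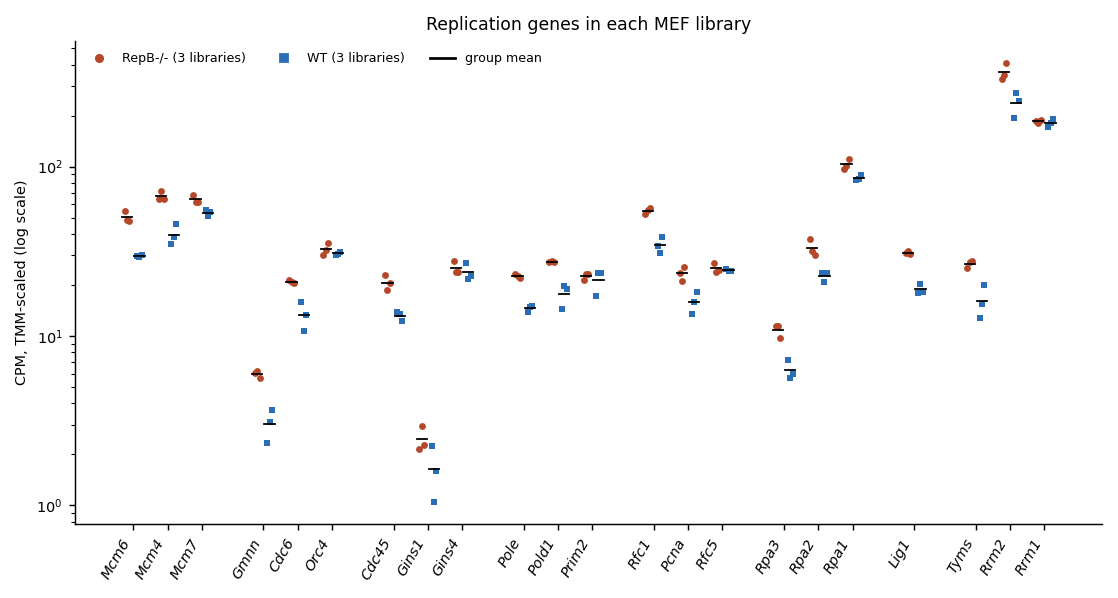
CPM in each MEF library, on a log axis, for the 22 genes given in full, ordered by complex, with RepB-/- libraries as circles, WT libraries as squares and group means as bars. The 3 RepB-/- libraries sit above the 3 WT libraries for genes such as Mcm6, Gmnn, Pole and Lig1, and mingle with them for Orc4, Gins4, Rfc5 and Rrm1.

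Partner genes were set against each other within a library in 9 pairs that were chosen after their values had been seen, so the pairs are a description. The RepB-/- and WT libraries did not overlap in 8 of the 9. Mcm7 to Mcm6 and Rfc5 to Rfc1 join the smallest and the largest change of their groups. The other pairs without overlap each join a gene that rose with a partner that did not pass or fell. The count of 8 therefore follows largely from the choice. Besides the ratios given above, Rrm2 to Rrm1 was 7.76 ± 0.80 in RepB-/- cells and 5.17 ± 0.72 in WT cells (SD, n = 3), and Pole2 to Pole was 1.05 ± 0.09 and 1.46 ± 0.21. Prim2 to Prim1 was 1.16 ± 0.01 and 1.71 ± 0.43, Rfc5 to Rfc1 was 0.59 ± 0.06 and 0.93 ± 0.10, and Orc4 to Orc1 was 2.15 ± 0.28 and 3.13 ± 0.63. The libraries overlapped only for Pcna to Mcm2, at 0.87 ± 0.11 and 0.88 ± 0.15, the pair whose log2 fold changes were alike (0.55 and 0.57). With 3 against 3 libraries an exact permutation test cannot go below p = 0.1, and none was run.

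**Figure D3:**
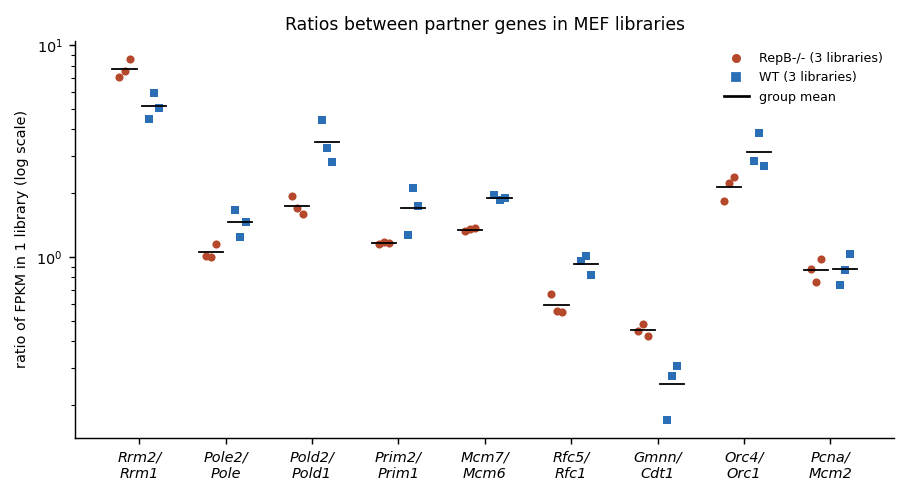
Ratio of the per-length level (FPKM) of partner genes within each MEF library, on a log axis, with RepB-/- libraries as circles, WT libraries as squares and group means as bars. The genotypes do not overlap in 8 of 9 pairs, which were chosen after their values had been seen, and overlap for Pcna to Mcm2.

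In WT MEFs the per-length level (FPKM) of the 44 genes fell from 88.2 ± 11.6 for Rrm2 to 0.23 ± 0.16 for Fen1. Gins4 (18.4 ± 2.9), Rrm1 (17.1 ± 0.63), Rpa1 (15.9 ± 0.67) and Mcm3 (15.3 ± 1.5) followed Rrm2. Orc1, Pole and Gins1 were the next lowest before Fen1, at 1.41, 1.36 and 1.13. Fen1 held 37 counts over all MEF libraries, so its value rests on few reads. Of the 43 neighbouring pairs in this order, 34 differed by less than 1 SD between libraries, so that most ranks are not resolved. Rrm2 stood clear of Gins4. Within MCM2-7, WT levels ran from 6.60 ± 0.28 for Mcm6 to 15.3 ± 1.5 for Mcm3, and in RepB-/- cells from 10.3 ± 0.72 to 20.3 ± 1.9 for the same genes.

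Other genes of the same processes were also higher. Of 45 further replication genes, 44 were tested, 22 rose and 1 fell (beside 19.4% and 19.7% of all genes), with a median log2 fold change of 0.37. The largest changes were those of Dscc1, a subunit of an alternative clamp loader, with 1.68, 3.05 and 2.64 CPM against 0.48, 0.62 and 1.66 CPM, and of Clspn, the checkpoint mediator claspin at the fork, with 23.8, 25.9 and 24.7 CPM against 9.86, 10.4 and 12 CPM. Neither pair of groups overlapped, but for the scarce Dscc1 the nearest RepB-/- and WT libraries all but touched, at 1.68 and 1.66 CPM. The log2 fold changes were 1.36 ± 0.43 for Dscc1 and 1.2 ± 0.11 for Clspn. Pola1, the catalytic subunit of polymerase alpha and an X-linked gene, was at 9.23, 11.7 and 9.93 CPM against 3.69, 5.63 and 5.64 CPM, a fold of 2.04 (adjusted p = 0.00074), whereas its autosomal partner Pola2 did not pass. The gene that fell was Shmt1, a cytosolic enzyme of folate metabolism, at 11.6, 11.5 and 11.8 CPM against 20.8, 17.3 and 14.9 CPM, for a log2 fold change of -0.60 ± 0.13.

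Of the 10 genes of the E2F family, 5 rose, by 0.28 for E2f1 and E2f6, 0.43 for E2f8, 0.32 for Tfdp1 and 0.38 for Tfdp2 on the log2 scale, and none fell (the other 5 had adjusted p of 0.28 or more), beside 19.4% of all genes that rose and 19.7% that fell. Of the 7 proliferation markers, 6 rose, beside the same 19.4%, and Aurka did not pass (0.05, adjusted p = 0.76). Mki67 was at 42.6, 44.3 and 42.4 CPM in RepB-/- cells and 14.9, 19.5 and 25.7 CPM in WT cells, a fold of 2.13. For the Ki67 protein, the paper reports weaker staining in RepB-/- tissues other than lung. Top2a, the topoisomerase that untangles replicated DNA, was at 86.0, 94.5 and 93.0 CPM against 41.5, 42.1 and 51.8 CPM, a fold of 2.02. The highest fold among the 43 tested replication genes was 1.94.

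Other features of the MEF libraries differed along with genotype. The RepB-/- libraries were deeper (20005541 to 20587556 counts, against 11540344 to 16347806), yet 15453 to 15545 genes had a count in them, against 17191 to 17664 in WT. Leukocyte markers summed to 109 to 142 CPM in RepB-/- and 33.4 to 53.9 CPM in WT, most of it Lyz2, with 3 of 6 raised, none lowered and Cd3e at 0 in RepB-/-. Endothelial markers summed to 19.8 to 21.5 CPM against 28.8 to 36.2 CPM, with 1 of 4 raised and 3 lowered. Keratinocyte markers summed to 6.44 to 12.3 CPM against 3.37 to 5.05 CPM, with 1 of 5 raised. Among the 9 fibroblast markers 4 rose and Thy1 fell. The part of these cell types, and of the number of genes with a count, in the replication gene result was not tested. Depth was addressed only by thinning every library to the smallest total. After thinning, 23 of the 43 genes rose and 1 fell, beside 2315 and 2331 of all 12670 genes tested.

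In liver none of the 44 genes passed the test between genotypes. All 44 were tested, 0 rose and 0 fell with edgeR, beside 0.00622% and 0.0311% of 16080 genes, and 1 of the 44 had an unadjusted p under 0.05, beside 3.12% of all genes. DESeq2 likewise called 0 of 44, beside 32 higher and 43 lower of 20305 genes given an adjusted p. The median log2 fold change was -0.04, with 16 of the 44 above 0, beside 51.6% of all genes. That count was not stable: it was 28 with the replicate number as a block (beside 50.6% of all genes), 7 without RepB-/- replicate 1 and 37 without WT replicate 1. The median standard error of the genes was 0.57 against 0.11 in MEFs. In counts simulated with the liver spread, 0 of 98 genes changed by 1 on the log2 scale were called. The lack of calls in liver therefore does not show a lack of change. For 42 of the 43 genes tested in both tissues the 95% interval in liver held the MEF estimate. The exception was Rfc1, with a liver interval from -0.56 to 0.42 and a MEF estimate of 0.68. Without the library read as RepB-/- replicate 2, 42 of the 43 intervals again held the MEF estimate, with Rfc1 the exception. With the block, which narrows the intervals, 36 of the 43 held it, and those of Mcm6, Gmnn, Gins1, Pold1, Rfc1, Rpa2 and Lig1 did not. For Mcm6 the 95% interval ran from -2.61 to 2.42 on the log2 scale, and from -0.35 to 0.69 with the block. For Lig1 it ran from -2.59 to 2.55, and from -0.35 to 0.61 with the block.

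The spread followed the replicate number. Mcm5 measured 53.3, 10.5 and 9.36 CPM in the RepB-/- livers numbered 1, 2 and 3, and 71.7, 3.02 and 9.51 CPM in the WT livers. Mcm2 measured 36.9, 6.99 and 7.44 CPM against 49.5, 4.42 and 7.67 CPM. The libraries numbered 1 stood high in both genotypes, 5.37 and 11.5 times the mean of their replicates 2 and 3 for Mcm5. The same held for 37 of the 44 genes, for which both replicate 1 libraries lay above the other 4, beside 23% of all genes tested. Over the 44 genes the median difference between replicate 1 and the others was 1.22 on the log2 scale (CPM + 0.5), beside 0.00 for all genes. These libraries are also those with the fetal liver markers, and their age is not given, so stage and library cannot be told apart. The difference is given without a test.

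The replication genes did not share this difference equally. MCM2-7, at a median of 2.54 on the log2 scale, and Okazaki fragment maturation, at 2.23, differed most, followed by polymerases and primase (1.36), nucleotide supply (1.34), and the clamp and clamp loader (1.11). Cdc6 was at 7.58, 0.66 and 1.28 CPM in RepB-/- livers and 9.17, 0.21 and 0.32 CPM in WT livers. Orc1 was at 1.86, 0.04 and 0.23 CPM against 1.67, 0 and 0.36 CPM, with 0 to 2 counts in replicate 2 of either genotype, at or under the floor of 3 counts. In contrast, Orc3, Orc4 and Orc5, subunits of the same complex, were slightly lower in replicate 1. Orc4 measured 7.52, 8.12 and 10.8 CPM and 6.92, 11.99 and 9.91 CPM, and Orc3 13.5, 14.04 and 23.9 CPM and 14.9, 22.9 and 19.8 CPM. The other 4 of the 7 exceptions were Gins2, Gins4, Mcm10 and Rpa3. For Pcna the values were 60.7, 21.3 and 24.9 CPM and 71.1, 17.6 and 19.01 CPM, and for Rrm2 33.9, 5.6 and 5.86 CPM and 30.2, 1.55 and 6.02 CPM.

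**Figure D4:**
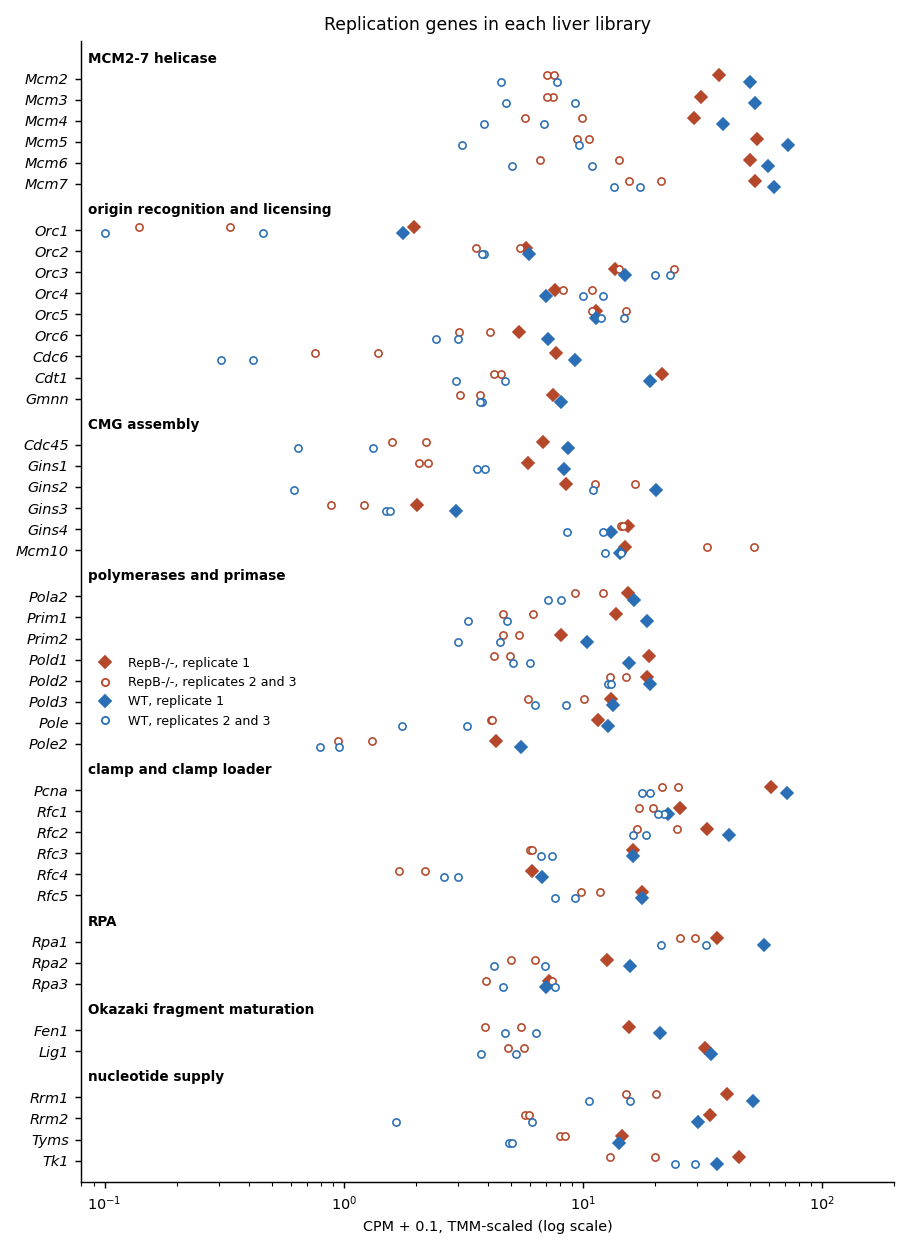
CPM + 0.1 in each liver library, on a log axis, for all 44 replication genes, with filled diamonds for replicate 1 and open circles for replicates 2 and 3 of each genotype. In 37 of the 44 genes both diamonds lie to the right of all 4 circles, and Orc3, Orc4 and Orc5 are among those where they do not.

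The genes with a large difference in liver and those with a large genotype change in MEFs share no libraries. Across 43 genes tested in both tissues, the MEF log2 fold change and the replicate 1 difference in liver had a Pearson correlation of 0.46 and a Spearman correlation of 0.44, beside -0.011 and -0.0011 across all 11978 genes. These are correlations over genes, which are not independent replicates. Orc1, Cdc6, Lig1 and Rrm2 were high on both measures and Orc4, Orc5 and Gins4 low on both, whereas Cdt1 (2.21 in liver, 0.10 in MEFs) and Rrm1 (1.57 and 0.03) were high in liver alone and Rpa3 (0.30 and 0.81) and Rfc1 (0.28 and 0.68) in MEFs alone.

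Comparing genotypes within replicate number did not bring any replication gene past the threshold. With the replicate number as a block the median log2 fold change was 0.11 and the median standard error 0.26, and with both replicate 1 libraries left out the median was 0.26 over 43 genes. Leaving out RepB-/- replicate 1 moved it to -0.65 and leaving out WT replicate 1 to 0.70. It was 0.17, with 33 of 44 values above 0 and 0 genes called, when the library read as RepB-/- replicate 2 was left out. Mcm10 and Gins4 were the only genes whose RepB-/- livers all lay above the WT livers, 2 of 44 beside 3.38% of all genes (0 lay below, beside 4.66%), and they are named after their values were seen. Mcm10 was at 14.9, 51.5 and 32.8 CPM against 14.2, 12.2 and 14.3 CPM, with the excess in replicates 2 and 3, a log2 fold change of 1.28 ± 0.43 and an adjusted p of 1.00 (unadjusted 0.021). Without the library read as RepB-/- replicate 2, which was the highest, its log2 fold change was 0.81 (unadjusted p = 0.073 and adjusted p = 0.999 by edgeR). With a term for replicate 1 as well, the log2 fold change was 0.80 (unadjusted p = 0.048 and adjusted p = 0.61 by edgeR). Gins4 was at 15.4, 14.3 and 14.5 CPM against 13.0, 8.47 and 12.1 CPM. Erythroid markers summed to 3640, 1818 and 1092 CPM in RepB-/- livers and 1308, 254 and 213 CPM in WT livers, and their part in these values was not tested.

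A direct test of the difference between the tissues found no replication gene. In a fit of all 12 libraries the MEF effect minus the liver effect had a median of 0.41 over the 44 genes, with 0 past the threshold in either direction by edgeR, beside 0.118% and 0.27% of 15208 genes, and 1 of 44 at an unadjusted p under 0.05, beside 14.2% of all genes. That last count was 7 with the replicate number as a block (beside 20.1% of all genes) and 8 without liver RepB-/- replicate 1 (beside 17.2%). Without the liver library read as RepB-/- replicate 2 it was 2, beside 2360 of 15332 genes, and the median was 0.24. The gene in the fit of all 12 libraries without the block was Rfc1, at 0.74 ± 0.20 (adjusted p = 0.14 by edgeR). It passed at 0.94 (adjusted p = 0.042 by edgeR) when liver RepB-/- replicate 1 was left out. The fit shared a single spread per gene between tissues, although the coefficient of variation was 9.06% in MEFs and 51.2% in liver. Its standard errors can therefore be too small, and that of Rfc1 was no larger than in liver alone (0.21). limma voom with weights by group also called 0 of the 44 genes, beside 12 higher and 39 lower of 15208 genes. The 25 genes that rose in MEFs are therefore not shown to respond differently in liver.

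**Figure D5:**
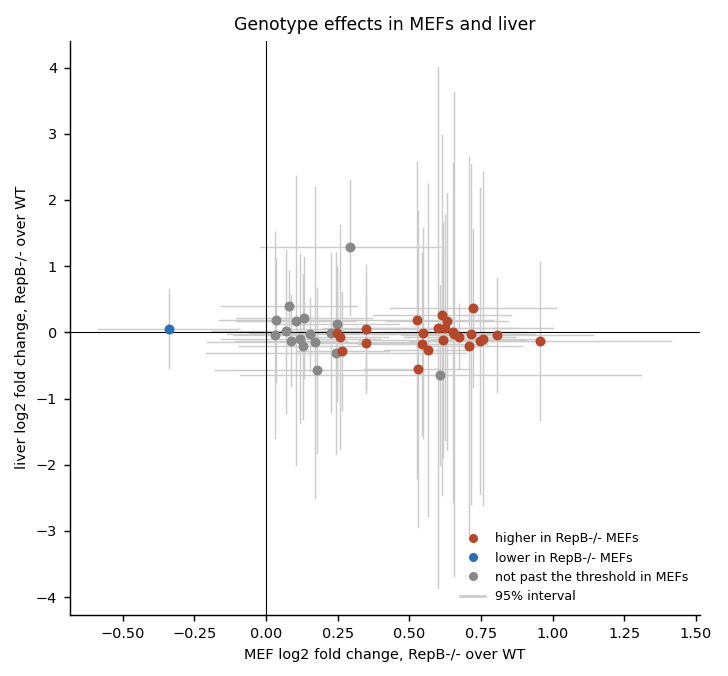
Log2 fold change of RepB-/- over WT in liver against that in MEFs for the 43 genes tested in both, with 95% intervals as grey lines. The MEF estimates lie between -0.34 and 0.96 with short intervals, while every liver interval except that of Mcm10 spans 0.

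Some values carry a limit from the annotation. Of the 44 genes, 13 overlap another gene listed for MEFs and 22 overlap another gene listed for liver. The study's methods describe stranded libraries for MEFs, and the labels name a Vazyme mRNA kit. Whether counting used strand is not given in the sources used here, and without it reads of such neighbours cannot be told apart from those of the gene. Tk1 lies wholly within Gm20708 on the opposite strand, which held 10919 counts in liver beside 7654 for Tk1, and 0 in MEFs. Gins2 overlaps Gse1 on the opposite strand by 2758 bases in both tables. Rfc4 and Rfc5 overlap the more abundant Eif4a2 and Wsb2 by 194 and 499 bases.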

How the data were processed

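RNA sequencing of 12 libraries was analysed, 3 per genotype in MEFs and in liver. The paper's methods give trimming with Cutadapt and alignment with Hisat2, while the submitters' processing notes name Trim Galore 0.4.1, STAR 2.7.0, HTSeq 0.12.4 and DESeq2. Which route made which table is not given. The deposited tables hold whole-number counts per gene that the authors did not normalize, with GRCm39 coordinates in MEFs and GRCm38 in liver. The authors also deposited FPKM values, which were used to compare levels between genes within a tissue, and 6 per-sample columns were not used.

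Counts were fitted in each tissue with edgeR 4.0.16 in R 4.3.3 (TMM scaling, filterByExpr, quasi-likelihood test), and a gene was called at a Benjamini-Hochberg adjusted p under 0.05 over all genes tested. CPM values are counts scaled to TMM-adjusted library totals. The tissues were compared by the interaction in a fit of the 12 libraries, with a single dispersion per gene shared by both tissues. Intervals are 95%. Alternatives were DESeq2 1.42.0, edgeR with DESeq2's size factors or with TMM from autosomes alone, keeping genes with low counts, thinning, a 1.5-fold limit, replicate number as a block, limma voom (limma 3.58.1) for the interaction, terms for replicate 1 of liver, and leaving out libraries. The fit was tested on counts simulated with the means, library sizes and spread of each tissue. Of genes changed by 1 on the log2 scale, 80 of 99 were recovered in MEFs and 0 of 98 in liver. Of those changed by 0.6, 64 of 99 and 0 of 98 were recovered.

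In each group of genes, values in every library are given for the 2 members with the largest and the 1 with the smallest MEF change. Members with a negative MEF change are named too, with up to 5 other replication, E2F or proliferation genes in each direction and Pola1, Mki67 and Top2a. The members, lists and tests were chosen with earlier results of these data known. Same-numbered livers deviated together from their genotype means (correlations of 0.71, 0.36 and 0.37 over 16080 genes). The replicate 1 livers, which stood apart in both genotypes, also shift the deviations of replicates 2 and 3 from those means. The values for replicates 2 and 3 therefore do not show that those livers are matched. Same-numbered MEF libraries did not deviate together (-0.011, -0.042 and -0.0035 over 13306 genes). Promoter windows came from RefSeq (GRCm38.p6). Python 3.11.15, pandas 2.3.3 and matplotlib 3.10.9 made the tables and figures.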

Additional observations from a re-analysis of the deposited data

How the results depend on the processing

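In MEFs the count of 25 raised genes was between 23 and 27 under the settings other than a fold limit, and between 21 and 25 when each library was left out in turn. Over all genes, between 2315 and 3067 rose under those settings and between 1918 and 2536 without single libraries. With a limit of 1.5-fold the count of raised replication genes was 15, and 0 of them fell. The count of 1 gene that fell, Pold2, was 0 with DESeq2 and 0 to 1 when single libraries were left out. Of the 26 called genes, 20 were called in each of the 12 alternative fits, which leave out the 1.5-fold limit. The median log2 fold change lay between 0.31 and 0.39 across other settings and between 0.30 and 0.46 without single libraries.

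In liver 0 replication genes passed in either direction under every alternative run. The median there lay between -0.65 and 0.70 when libraries were left out in turn and between -0.04 and 0.26 otherwise. For the interaction, 0 to 1 replication genes passed when libraries were left out, and the median ran from -0.47, without WT liver replicate 1, to 1.03.

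With the replicate number as a block, 24 of the replication genes rose in MEFs and 1 fell, with Rfc2 lost (adjusted p = 0.054 by edgeR). Of all 13306 genes, 2468 rose and 2538 fell in that fit. The same block in liver gave a median of 0.11 with 0 of the 44 genes past the threshold, so that it changed no call among them. In the interaction the block gave a median of 0.25 and called 0 of the 44 genes. MEF libraries share only a number. Counts of 3 or fewer, as for Orc1 in liver, limit what single values can show, and the cause of the differences between settings was not tested.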
